A study of Triticum aestivum with 8 samples.

Results

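Described here are transcripts of the germinating wheat embryo that held their level from dry seed to 16 h of imbibition and rose only afterwards. Their levels are relative to the other transcripts on the array, and relative to added control RNAs they were already higher at 16 h. They were picked from a microarray by their measured course. A probe belonged to them when its signal was well above background on all 8 arrays, when its mean log2 level at 16 h was within 1 of the dry-seed mean, and when its mean at 24 h was at least 2 above that at 16 h. These limits correspond to a change of less than 2-fold up to 16 h and of at least 4-fold after it. They were met by 109 of the 43603 probes on the array, or 0.457% of the 23842 probes detected on every array. The 109 probes carry 99 sequence names. Their differences between the 3 stages chose them, so those differences are given as a description and without a test.

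The samples were embryos of the bread wheat (Triticum aestivum) cultivar Norin61, and each array carried the RNA pooled from 7 embryos. Dry seed at 0 h was represented by 2 arrays, seeds imbibed for 16 h by 3 and seeds imbibed for 24 h by 3. Imbibed seeds were kept moist in the dark, and seeds whose radicle, the embryonic root, was shorter than 3 mm at 16 h or 7 mm at 24 h had been left out, so the imbibed groups hold germinated seeds only. The hours are those of the sample titles, because the description fields give other hours for the imbibed samples. All stages share the cultivar and the labelling of 200 ng of RNA per array. Per the labels, the seeds of a stage were collected together and then divided, so the pools of a stage are subsets of 1 collection.

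A mature cereal embryo is dry and metabolically quiet, and it carries a store of messenger RNA made while the grain matured. Water uptake restarts translation and transcription, many stored messengers are broken down, and the radicle breaks through its sheath. Growth of root and shoot then depends on cell division, wall building and the supply of sugars and amino acids from the reserves of the grain. Since the 16 h seeds had already put out a radicle, the step from 16 h to 24 h, over which the rule measured the rise, follows emergence. The sequence names of these probes are identifiers of assemblies and database entries. Of the members, 60 carry a transcript assembly name (TA), 11 a tentative consensus name (TC), 8 an entry starting with AK, and 30 another database entry. None of the 99 names (0) was matched in the RefSeq gene table used here, nor was any of the 40253 names on the array. The members are therefore described by probe and sequence name, and no function is given to them. For the same reason the lists of gene functions and of embryo, endosperm, aleurone and shoot markers could not be read, and the labelled tissue was not checked against its markers.

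A late rise from a steady level was one of several courses by which transcripts climbed after 16 h. Of the probes detected on every array, 333 were at least 2 higher at 24 h than at 16 h on the log2 scale. Before that rise, 139 of them had dropped by at least 1 from dry seed to 16 h, 85 had already gone up by at least 1, and 109 lay between these limits. Of the 12022 detected probes that were steady up to 16 h, the late risers made up 0.907%. The opposite course, steady up to 16 h and then lower by at least 2, was followed by 49 probes. In the plot of both steps the late risers form a band above the centre of the cloud, with no gap at its lower edge.

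**Figure D1:**
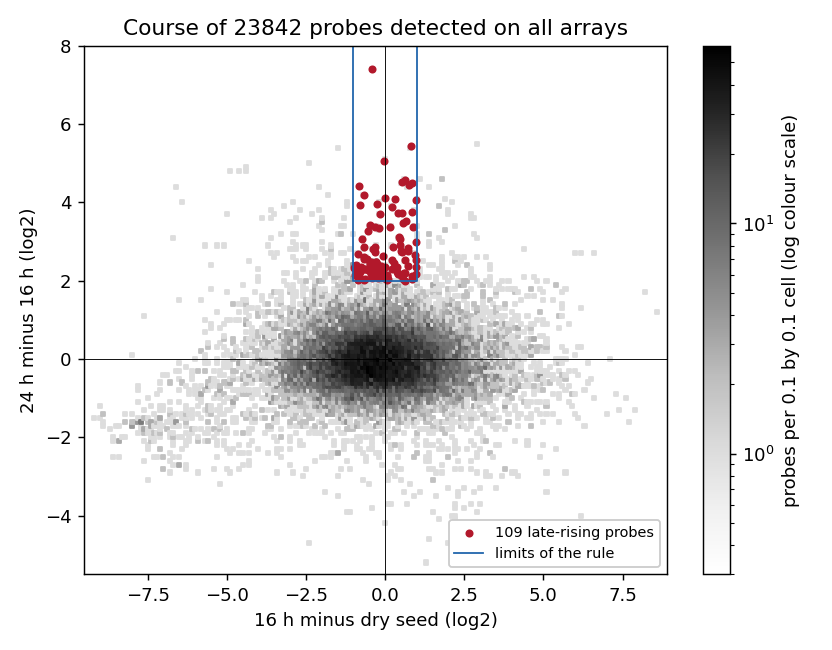
Each grey cell counts probes detected on all 8 arrays by their difference between 16 h and dry seed (horizontal, log2) and between 24 h and 16 h (vertical, log2), and red points are the 109 late-rising probes inside the limits of the rule (blue). The grey cloud is densest near 0, and the red points run from 2.0 to 7.41 on the vertical axis.

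Levels are given as log2 processed signal relative to the array's 75th percentile, so 0 means that the probe was as bright as the 75th percentile of its array. By replicate number, the members' median level stood at -3.0 and -3.07 for dry seed, at -2.17, -3.16 and -3.0 for 16 h, and at 0.35, -0.37 and 0.36 for 24 h. In whole embryos, more cells of a type and more RNA per cell cannot be told apart behind a higher level. All 24 h arrays lay above all others, while the first 16 h array stood above the other 16 h arrays. The difference between 24 h and 16 h had a median of 2.46, a 5.50-fold difference, and ran from 2.0 to 7.41. It was under 2.5 for 59 probes, from 2.5 to 3 for 20, from 3 to 4 for 18 and 4 or more for 12. The first step had a median of -0.10, with 49 probes above and 60 below 0, but its sign depended on the scaling, since the median was 0.07 with the 75th percentile taken over detected probes, -0.17 with quantile normalization and -0.22 with median scaling. The level at 16 h stayed within 0.5 of the dry-seed mean for 53 probes. Over all detected probes the medians were -0.07 for 24 h minus 16 h and -0.19 for 16 h minus dry seed.

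The 24 h arrays were separated from the rest probe by probe. For all 109 probes, the lowest 24 h array was above the highest of the 16 h and dry-seed arrays, by 0.31 to 4.22 with a median of 1.47. Of the probes detected on all arrays, 29.1% had every 24 h array above every 16 h array and 17.5% had them above the dry-seed arrays too, but the rule asks for a high 24 h mean, so nothing is read from the members' count. Dry-seed and 16 h ranges overlapped for 65 of the 109 probes and were apart for 44. The share over all detected probes was not computed and the rule limits this step, so nothing is read from these counts. As summed signal, the 109 probes held 0.0350% of the wheat signal on each dry-seed array. They held 0.0736%, 0.0410% and 0.0414% of it on the 16 h arrays and 0.30%, 0.182% and 0.315% on the 24 h arrays.

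**Figure D2:**
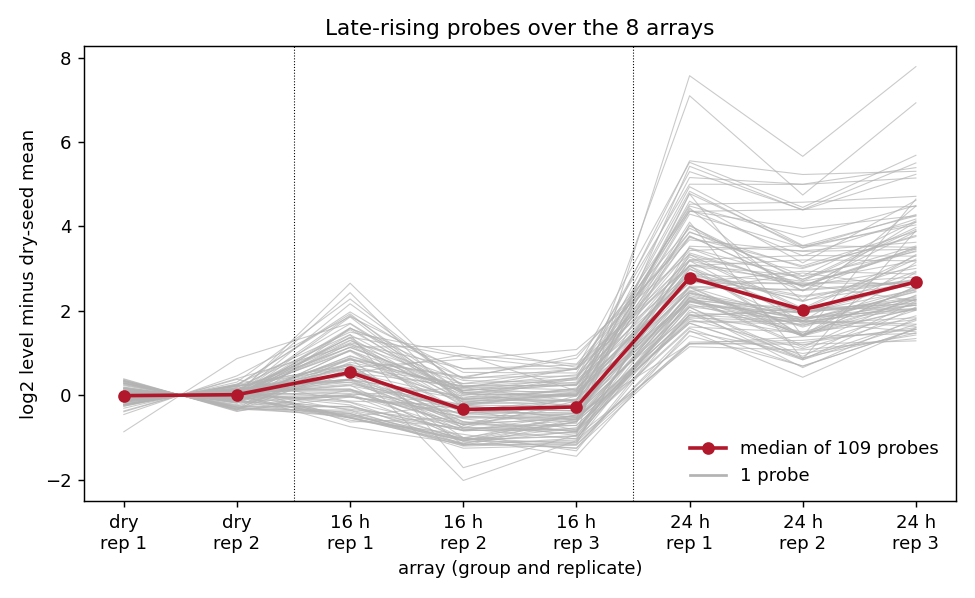
Each grey line is 1 of the 109 late-rising probes over the 8 arrays, as log2 level minus the probe's own dry-seed mean, and the red line is the median of the probes. The median line stays near 0 on most arrays up to 16 h and lies higher on the 24 h arrays, with 16 h replicate 1 above the other 16 h arrays and 24 h replicate 2 below the other 24 h arrays.

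A linear model across all probes (limma, called at an adjusted p below 0.05 and at least 2-fold) placed the rise against the spread between arrays. All 109 members were called higher at 24 h than at 16 h, where 11.7% of the 30833 tested probes were. The rule used this contrast, so the count is given without weight. The standard error of the members' 24 h minus 16 h difference was 0.12 to 0.88 with a median of 0.33. For 16 h against dry seed, 0 of the 109 were called by limma, which the rule's limit fixes, beside 52.1% of all tested probes. With no fold minimum, 20 members had an adjusted p below 0.05 at 16 h, 7 of them higher and 13 lower than in dry seed, and 22 had an unadjusted p below 0.05. Over all tested probes 75.7% passed without the fold minimum, 36.6% higher and 39.0% lower, and nothing is read from these counts, since the rule used the step. Probe A_99_P307876, the member nearest to the limit, was no longer called at 24 h when 16 h replicate 2 or 3 or 24 h replicate 2 or 3 was left out, with limma adjusted p of 0.0502 to 0.0668. These p-values measure the spread between pools, which may be partly technical.

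The steepest rise was that of probe A_99_P422467, which carries the name CK209240. Its levels were -4.28 and -3.91 (dry seed), -2.66, -5.81 and -5.04 (16 h) and 3.48, 1.57 and 3.69 (24 h). The 24 h arrays were far above the rest, and within the 16 h group the first array was higher than the others by more than 2. The difference of 7.41 between 24 h and 16 h is 171-fold, with a limma standard error of 0.86. Its linear signals were 13.5 and 16.4 in dry seed, where the lowest signals well above background were 7.69 and 8.98. On 16 h replicate 2 its signal was 26.0, where that lowest signal was 16.8. The size of the fold thus rests partly on dim signals, and with the normexp background correction given below the difference was 6.21.

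Probe A_99_P321991 (TA88129_4565) followed the same course on a smaller scale. It stood at -4.37 and -4.35 (dry seed), -1.71, -4.30 and -4.64 (16 h) and 2.74, 0.38 and 2.57 (24 h). The first 16 h array was again the highest of its group, and the second 24 h array again the lowest of its group. Its 24 h minus 16 h difference was 5.45, or 43.6-fold (limma SE 0.88). Probe A_99_P340626 (TA93784_4565) had -4.54 and -4.33 (dry seed), -3.08, -5.24 and -5.10 (16 h) and 0.99, -0.04 and 0.80 (24 h). Its 16 h mean was 0.04 below that of dry seed, but no 16 h array lay between the dry-seed arrays. Replicate 1 was above both of them and the other 16 h arrays were below both (16 h SD 1.21, n = 3). At 24 h this probe was 33.2-fold higher than at 16 h (difference 5.05, limma SE 0.57).

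The next 7 steepest probes had differences of 4.11 to 4.58 between 24 h and 16 h. Probe A_99_P325796 (TA89290_4565) was 23.9-fold higher (limma SE 0.36) and A_99_P453562 (TC406144) 23.0-fold higher (limma SE 0.37). The highest 16 h and the lowest 24 h array were at -3.63 and -0.30 for A_99_P325796 and at -2.83 and 0.36 for A_99_P453562, so the stages were far apart in both. Probe A_99_P249481 (CV777721) was 22.6-fold higher and A_99_P561687 (TC456652) 18.3-fold higher. The 24 h levels were 1.55, 1.22 and 1.30 for CV777721 and 0.43, 0.32 and 0.52 for TC456652, so the 24 h arrays were close together in both, while 16 h replicate 1 was the highest 16 h array at -1.73 and -2.95. The remaining 3, TA86266_4565, TA83695_4565 and AK335668, differed in which pool departed from its group and are given below with their levels.

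A few members were already bright in dry seed. Of the 109 probes, 12 had a dry-seed mean above the array's 75th percentile, 9 a 16 h mean above it and 57 a 24 h mean above it. The brightest member at 24 h was A_99_P260391 (TA70103_4565), with 2.39 and 2.36 (dry seed), 3.51, 2.49 and 2.61 (16 h) and 5.43, 4.30 and 5.31 (24 h). It was 4.41-fold higher at 24 h than at 16 h (difference 2.14, limma SE 0.36). Close to it were A_99_P260396 (TA70104_4565) with a 24 h mean of 4.87 ± 0.71 (SD, n = 3) and A_99_P002581 (TA64048_4565) with 4.37 ± 0.40 (SD, n = 3). Probe A_99_P236411 (TA63442_4565) had 3.17 and 2.93 (dry seed), 2.57, 2.0 and 2.07 (16 h) and 4.20, 4.12 and 4.39 (24 h). It was 0.84 lower at 16 h than in dry seed before it rose. The fifth brightest, A_99_P463942 (DR737778), had 1.70 and 1.54 (dry seed), 1.57, 1.29 and 0.80 (16 h) and 4.18, 3.06 and 3.80 (24 h). Probe brightness depends on the probe as well as on the transcript, so these levels do not rank the transcripts.

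Other members showed little spread between the arrays of each imbibed stage. The smallest limma standard error, 0.12, was that of A_99_P249776 (AK332602), with -3.45 and -3.53 (dry seed), -3.82, -4.16 and -4.06 (16 h) and -1.75, -1.81 and -1.66 (24 h). Probe A_99_P464372 (CD871122) had -4.53 and -4.10 (dry seed), -4.95, -4.85 and -4.88 (16 h) and -2.46, -2.24 and -2.28 (24 h). The 16 h arrays lay within 0.1 of each other, and the 24 h arrays were all more than 2 above them (5.90-fold, limma SE 0.14). Probe A_99_P552787 (CA644911) had -3.0 and -3.11 (dry seed), -2.51, -2.85 and -2.69 (16 h) and -0.50, -0.55 and -0.34 (24 h), a 4.66-fold difference between 24 h and 16 h (limma SE 0.12). All 3 were chosen as examples after their values were seen.

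Over most members, 1 array of each imbibed group stood apart. At 16 h, replicate 1 was the highest array for 97 of the 109 probes, against 4 for replicate 2 and 8 for replicate 3. Over all detected probes replicate 1 was highest for 41.0%. At 24 h, replicate 2 was the lowest array for 92 probes, against 12 for replicate 1 and 5 for replicate 3, beside 39.6% of all detected probes. Both held for 82 members, beside 18.9% of all detected probes, and 2 members showed neither, beside 38.2%. Replicate 1 was above the mean of the other 16 h arrays by a median of 0.75, ranging from -0.40 to 2.77, and 24 h replicate 2 was below the mean of the other 24 h arrays by a median difference of -0.73, ranging from -3.31 to 0.41. Over all detected probes both medians were at 0.01 or less in size. The median SD between arrays was larger for members, at 0.45 at 16 h and 0.43 at 24 h, than for all detected probes, at 0.16 and 0.13.

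The same arrays were displaced over probes outside the rule. Among 627 detected probes that were steady to 16 h and then rose by 1 to 2, replicate 1 was the highest 16 h array for 87.2% and replicate 2 the lowest 24 h array for 77.2%. Among 1629 detected probes that fell by at least 1 after 16 h, the signs were turned: replicate 1 was the lowest 16 h array for 89.8%, and replicate 2 the highest 24 h array for 59.5%. On the measures of array quality, 16 h replicate 1 had 31228 probes well above background, against 28888 and 31103 on the other 16 h arrays, and 24 h replicate 2 had 32005, against 31374 and 30642 on the other 24 h arrays. Each of these arrays had the highest count of its group. Relative to the spike-in controls, the 75th percentile was 10.55 for 16 h replicate 1, against 10.28 and 10.29 for the other 16 h arrays, and 11.25 for 24 h replicate 2, against 10.68 and 11.03 for the other 24 h arrays, on the log2 scale. Both displaced arrays had the highest such value of their group. The part of the counts and of these values in the pattern was not tested. Without these 2 arrays, the median difference of the members between 24 h and 16 h was 2.95. All 109 were called higher by limma in that fit, where 14.5% of all tested probes were. The rule chose the members on this step in the remaining arrays too, so the count is given without weight. Without the 2 arrays the first step had a median of -0.36, and 94 of the 109 were still within 1 of dry seed, while 15 lay at least 1 below it. The rule itself then took 180 probes, 94 of them among the 109. In the deposited table of the series the columns of 24 h replicates 2 and 3 hold each other's scanner values, so the number of the low 24 h pool depends on which file is followed.

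The 2 displacements differed in size from member to member. The 16 h replicate 1 array was at least 1 above the others of its group for 38 members, and the 24 h replicate 2 array at least 1 below the others of its group for 28. Of these, 28 members had the first only, 18 the second only and 10 both, while 53 had neither. Among all detected probes the first held for 1.35%, the second for 1.43%, both for 0.113% and neither for 97.3%. Across the 109 probes the sizes of the displacements were nearly unrelated (Pearson r = 0.10, across probes that share the same arrays). The limit of 1 alone sets the kinds of member described below.

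**Figure D3:**
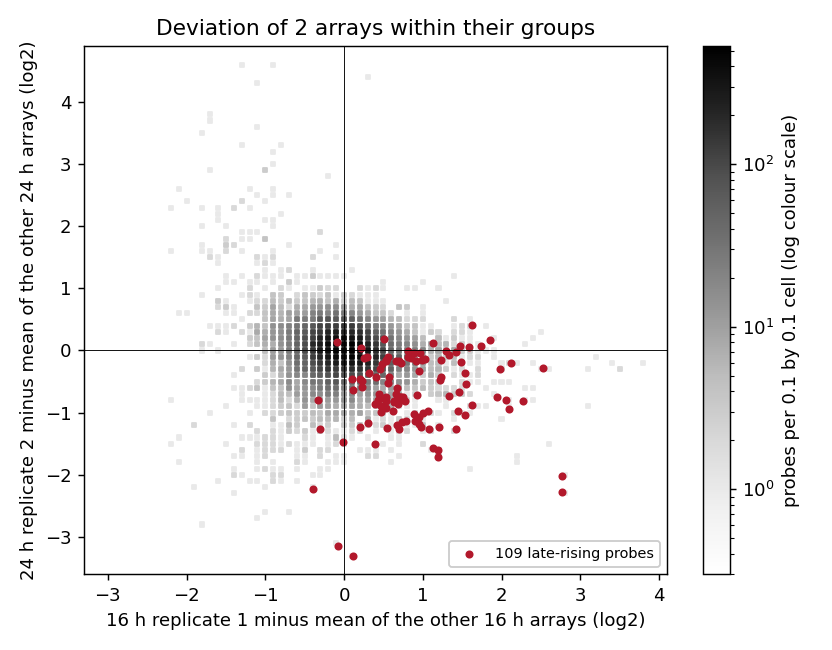
The horizontal axis gives 16 h replicate 1 minus the mean of the other 16 h arrays and the vertical axis 24 h replicate 2 minus the mean of the other 24 h arrays, both in log2. Grey cells count the probes detected on all arrays, and the red points, the 109 late-rising probes, lie mostly to the lower right, at medians of 0.75 and -0.73.

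Some members of the first kind were well ahead on 16 h replicate 1 and close together at 24 h, while others, such as A_99_P340626 with a 24 h replicate 2 difference of -0.94, only just missed the limit of 1 at 24 h. Probe A_99_P315616 (TA86266_4565) had -3.23 and -3.16 (dry seed), -0.77, -3.44 and -3.14 (16 h) and 1.96, 1.80 and 2.20 (24 h). The first 16 h array thus stood about midway, while the other 16 h arrays had not left the dry-seed level. Probe A_99_P432632 (TA78505_4565) had -2.70 and -2.71 (dry seed), -0.82, -2.65 and -2.45 (16 h) and 0.72, 0.84 and 0.80 (24 h). Probe A_99_P351951 (TA97353_4565) had -0.48 and -0.62 (dry seed), 1.30, -0.73 and -0.38 (16 h) and 2.11, 2.39 and 2.32 (24 h). For all 3 probes the mean rise after 16 h was drawn down by a single 16 h pool.

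Some members of the second kind were close together at 16 h and low on 24 h replicate 2, while others, such as A_99_P260391 with a 16 h replicate 1 difference of 0.96, only just missed the limit of 1 at 16 h. Probe A_99_P467942 (TA83695_4565) had -3.74 and -3.71 (dry seed), -4.47, -4.88 and -4.29 (16 h) and 1.05, -2.32 and 0.92 (24 h), the largest spread of any member at 24 h (SD 1.91, n = 3). Probe A_99_P576382 (CV973253) had -4.59 and -4.49 (dry seed), -5.07, -5.32 and -4.68 (16 h) and -0.44, -3.69 and -0.65 (24 h). On 24 h replicate 2 both probes stood more than 2 below the other 24 h arrays and still above every 16 h array. On the scale of the rule, probe A_99_P195753 (AK335668) was the most level of the steep risers before 16 h. It had -3.15 and -3.22 (dry seed), -3.18, -3.01 and -3.33 (16 h) and 1.41, -0.05 and 1.43 (24 h). Its first step was 0.01 on that scale, -0.96 with normexp and 2.89 relative to the spike-ins. Probe A_99_P212266 (TA54935_4565) had 1.02 and 0.46 (dry seed), 0.47, -0.10 and 0.26 (16 h) and 3.93, 2.49 and 4.07 (24 h). The examples of both kinds other than TA86266_4565, TA83695_4565, CV973253 and AK335668 were chosen after their values were seen.

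Where a sequence name was represented by several member probes, these mostly shared the departure of single arrays. The rule asks every member for a rise of at least 2, so a shared rise is given as a description only. There were 7 names with more than 1 member probe, 17 probes in all. The 3 member probes of AF069309 were 3.75 to 4.09 higher at 24 h than at 16 h, with 16 h replicate 1 ahead by 0.97 to 1.33 and 24 h replicate 2 within 0.08 of the other 24 h arrays. Probe A_99_P081005 of that name had -3.44 and -2.65 (dry seed), -1.87, -3.16 and -3.16 (16 h) and 1.31, 1.35 and 1.43 (24 h). The 3 probes of CJ949998 were 3.72 to 3.89 higher at 24 h, with 16 h replicate 1 ahead by 1.44 to 1.62 and 24 h replicate 2 below by differences of -1.05 to -0.88. Probe A_99_P331986 of CJ949998 had -2.54 and -2.51 (dry seed), -1.16, -2.69 and -2.52 (16 h) and 2.30, 0.96 and 1.57 (24 h). The 3 probes of DR737778 were 2.37 to 2.60 higher at 24 h, with 16 h replicate 1 ahead by 0.53 to 0.75 and 24 h replicate 2 below by differences of -0.93 to -0.74.

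**Figure D4:**
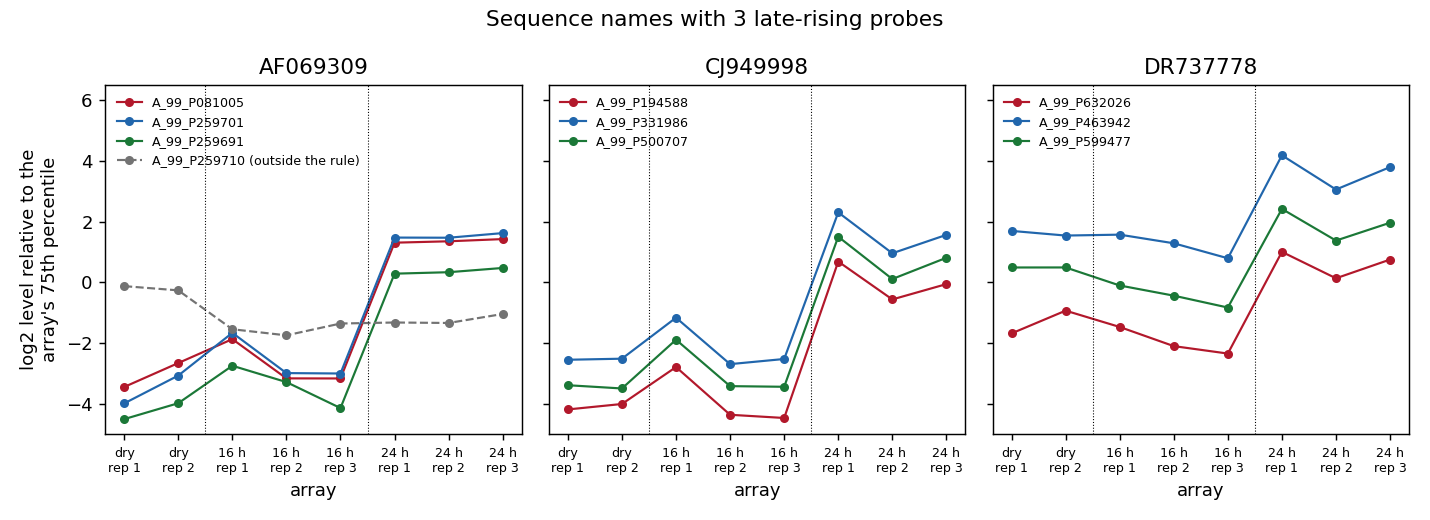
Log2 levels on the 8 arrays for the 3 sequence names with 3 late-rising probes each (solid lines), and for 1 further probe of AF069309 outside the rule (dashed). The solid lines of 1 name run close to parallel, and the dashed probe alone is highest in dry seed and stays near its 16 h level at 24 h.

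The 4 names with 2 member probes behaved likewise in the departure of single arrays. For AK332605, 24 h replicate 2 differed from the other 24 h arrays by -1.14 and -1.13, and the probes rose by 2.14 and 2.20 after 16 h. For TA70103_4565 that array differed by -1.27 and -1.07, and the probes rose by 2.92 and 2.14. It was close to its group for AK332602, by -0.21 and -0.10 with rises of 2.31 and 2.28, and for TA63453_4565, by -0.16 and -0.11 with rises of 2.33 and 2.27. A pair of probes thus shared either a clear or a slight lag. Probes of 1 name may share sequence, so they are not independent transcripts.

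Probes outside the rule that carry a member's name give a measure the rule did not use. There were 18 of them, for 14 names, and 16 were at least 1 higher at 24 h than at 16 h. Of the 10 that were detected on all arrays, 9 were at least 1 higher, beside 7.13% of all detected probes. The other 7 of the 16 were not well above background on at least 1 array, so part of their levels are only bounds. All 10 missed the rule on the first step: 7 were at least 1 lower at 16 h than in dry seed and 3 at least 1 higher. A detected probe with a rise of at least 2 can lie outside the rule only through its first step, so nothing is read from that departure, and the values are given as a description. For AK330180, the member A_99_P244141 changed by -0.91 up to 16 h and the outside probe A_99_P244156 by -1.04. For AK332605, the member A_99_P226256 had -1.57 and -2.02 (dry seed), -1.24, -2.13 and -2.16 (16 h) and 0.70, -0.40 and 0.78 (24 h). The outside probe A_99_P469052 had 1.58 and 1.56 (dry seed), 0.27, -0.62 and -0.44 (16 h) and 2.23, 1.36 and 2.32 (24 h). From dry seed to 16 h the member changed by -0.05 and the outside probe by -1.83, and from 16 h to 24 h they changed by 2.20 and 2.23.

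Values for further names were as follows. For TA78505_4565, the member A_99_P432632 was 0.74 higher at 16 h than in dry seed and the outside probe A_99_P527957 3.24 higher, and their 24 h minus 16 h differences were 2.76 and 2.59. For AK331265, the member A_99_P497542 changed by -0.16 up to 16 h and by 3.70 after it, and the outside probes A_99_P283726 and A_99_P066325 changed by 1.89 and 1.36 up to 16 h and by 3.29 and 3.21 after it. For TA58585_4565, the member A_99_P502807 changed by -0.33 up to 16 h and the outside probe A_99_P220796 by -1.41, and the later differences were 2.74 and 2.73. The 1 detected outside probe that was not at least 1 higher at 24 h was A_99_P259710 of AF069309, which was highest in dry seed at -0.12 and -0.26, had -1.54, -1.74 and -1.35 at 16 h, and stood at -1.32, -1.33 and -1.04 at 24 h. The member probes of that name rose by 3.75 or more after 16 h, and this probe changed by 0.31. The second probe of TA83695_4565, A_99_P479512, was well above background on 0 of the 5 dry-seed and 16 h arrays and had 0.05, -3.72 and 0.10 at 24 h, so its 24 h replicate 2 was low as in the member. The files do not say which stretch of a transcript each probe targets.

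Some members carry assembly names with nearly consecutive numbers. Of 58 assembly names among the members, 15 formed 7 runs in which neighbours were no more than 10 numbers apart. How many such runs equally many assembly names of the detected probes would form was not computed, so nothing is read from the count. What consecutive numbers share is not stated in the files. TA70103_4565 and TA70104_4565 were 2.14 and 2.20 higher at 24 h than at 16 h in probes A_99_P260391 and A_99_P260396. TA86269_4565 and TA86270_4565 were 3.12 and 3.06 higher, while TA86266_4565 of the same run was 4.44 higher. TA86305_4565 and TA86306_4565 were 2.12 and 2.04 higher. Within these runs, 24 h replicate 2 differed from the other 24 h arrays by -1.07 and -1.23 for the first pair and by -0.43 and -0.43 for TA86305_4565 and TA86306_4565, but by -0.28, -0.75 and -0.78 for TA86266_4565, TA86269_4565 and TA86270_4565. TA56817_4565 and TA56826_4565 changed by -0.75 and 0.41 up to 16 h, in opposite directions, with replicate 2 differences of -0.74 and -0.52 at 24 h. For TA70796_4565 and TA70798_4565 those differences were -0.59 and -0.87, for TA64032_4565 and TA64037_4565 -0.79 and -0.72, and for TA63453_4565 (probe A_99_P236461) and TA63459_4565 -0.16 and -0.17. Neighbouring names were thus alike in some runs and not in others.

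The arrays lay on 2 slides that each held all 3 stages, which let the rise be read on arrays that had no part in choosing the probes. The pools of a stage came from 1 collection, so the other slide does not hold independently collected seeds. Slide 1 carried 1 dry-seed, 2 of the 16 h and 1 of the 24 h arrays, and slide 2 the other 4. Each slide held 1 of the displaced arrays, 16 h replicate 1 on slide 1 and 24 h replicate 2 on slide 2. The part of these arrays in the values of either slide was not tested. Detection was asked of the 4 arrays of the choosing slide, while the shares of all detected probes are over probes detected on all 8 arrays. Applied to slide 1 alone, the rule took 150 probes, of which 86 were among the 109. On slide 2, all 150 were at least 1 higher at 24 h than at 16 h, with a median of 2.51 and a lowest value of 1.14, and 119 were at least 2 higher. Of all probes detected on every array, 8.23% were at least 1 higher and 1.62% at least 2 higher on slide 2. Chosen on slide 2, 136 probes were all at least 1 higher on slide 1, with a median of 2.43, and 101 were at least 2 higher, beside 7.88% and 1.57% of all detected probes.

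The share of probes that met each limit of the rule on the slide not used was similar for both steps. The rise of at least 2 was met on slide 2 by 79.3% of the probes chosen on slide 1, and on slide 1 by 74.3% of those chosen on slide 2. Of the 150 probes chosen on slide 1, 118 (78.7%) were within 1 between 16 h and dry seed on slide 2, where 50.6% of all detected probes were. Of the 136 chosen on slide 2, 97 (71.3%) were so on slide 1, beside 50.1%. Within the slides the 109 members were 1.56 to 7.71 higher at 24 h than at 16 h on slide 1 and 1.60 to 7.66 higher on slide 2, with medians of 2.56 and 2.62, and 71 probes met the whole rule on each slide alone.

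**Figure D5:**
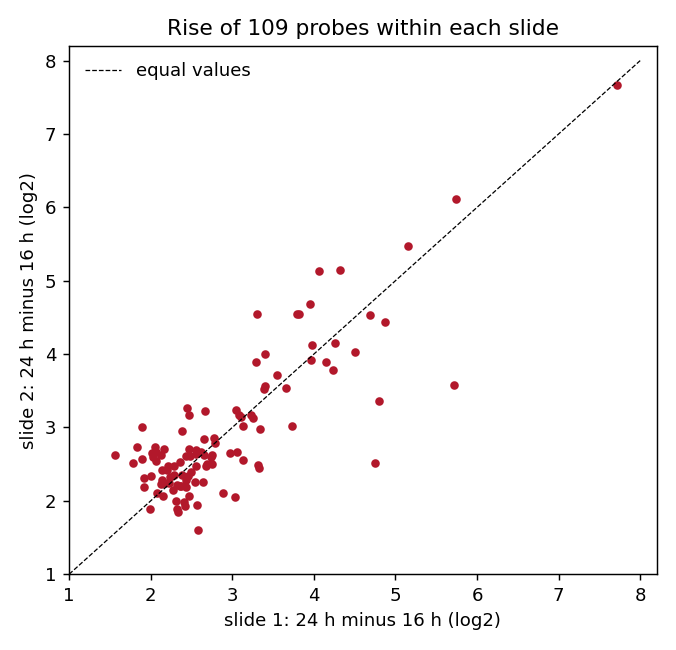
Each point is 1 of the 109 late-rising probes, with its 24 h minus 16 h difference (log2) on the arrays of slide 1 (horizontal) and of slide 2 (vertical), and the dashed line marks equal values. All points lie above 1.5 on both axes, with medians of 2.56 and 2.62.

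Whether these transcripts rose only after 16 h depends on what the arrays are scaled to. The values above are relative to the other transcripts on the array. Relative to control RNAs added in known amounts (spike-ins), the median of all tested probes was itself 2.82 higher at 16 h than in dry seed and 0.60 higher at 24 h than at 16 h on the log2 scale. On that scale all 109 members were higher in both steps, by 1.90 to 3.88 from dry seed to 16 h with a median of 2.79, and by 2.61 to 8.02 from 16 h to 24 h with a median of 3.07. All detected probes had medians of 2.69 and 0.54 for the same steps. Limma called all 109 higher in each step relative to the spike-ins, where 86.8% of all tested probes were called higher at 16 h and 29.2% at 24 h. No member (0 of 109) met the rule on that scale, and 131 other probes did. Spike-in scaling shifts all probes of an array alike, so the members' distance from the other probes in each step is the one the rule set.

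Many members were dim in dry seed, which bears on the first step. On the dry-seed arrays their processed signals had medians of 32.9 and 29.4 and lowest values of 8.78 and 9.54 in linear units, where the lowest signals well above background were 7.69 and 8.98. On 1 or both dry-seed arrays 30 members were within 2-fold of that lowest signal. These 30 had a median 24 h minus 16 h difference of 3.03, and the other 79 one of 2.34. Of the steepest risers named above, CK209240, TA88129_4565, TA93784_4565, TA89290_4565, TC406144 and CV777721 were among the 30. TC456652, TA86266_4565, TA83695_4565 and AK335668 were not. With normexp background correction (offset 50), the median first step of the members was -0.79, and 36 of them were at least 1 lower at 16 h than in dry seed. Limma called 34 lower at 16 h in that setting, where 40.9% of all tested probes were. The later rise kept its direction with normexp for all 109, at 1.01 to 6.21 with a median of 2.16. All were called higher, beside 7.03% of all tested probes. The rule chose the members on this step in the same arrays, so these counts are given without weight.

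Just inside the limit on the rise stood A_99_P307876 (TA84010_4565) with a difference of 2.0, A_99_P476197 (TC420045) with 2.02 and A_99_P236411 (TA63442_4565) with 2.03. Just outside it stood A_99_P052251 with 1.99, A_99_P021949 (AK334061) with 1.98 and A_99_P473697 (TC418711) with 1.97. At the limit on the first step, A_99_P561522 (CA702775), A_99_P231781 (TA62031_4565) and A_99_P347956 (CK207872) were just inside with 16 h minus dry-seed differences of 0.99, 0.99 and 0.98. The nearest probes outside were A_99_P347806 (TA96045_4565) with -1.01, A_99_P504292 (CK194471) with -1.02 and A_99_P247941 (TA66546_4565) with 1.02. Members and excluded probes thus meet at the limits without a break.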

How the data were processed

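RNA of 8 pools of wheat embryos was hybridised to 8 single-channel arrays. Per the file headers, the quantification software was Agilent Feature Extraction 10.7.3.1. The deposited intensity values are linear processed signals, background subtracted and detrended within each array and not scaled between arrays; median spot intensities served 1 alternative. The authors' deposited series table holds log2 values, which match the processed signals scaled to the 75th percentile and then centred on each probe's median, in the same direction. Its column medians are 0.47 and 0.50 for dry seed, -0.05, 0.00 and -0.04 for 16 h, and -0.07, 0.00 and -0.06 for 24 h, and 2 of its columns at 24 h are exchanged. The array design pairs 43803 spots with 43603 probes. Flags of the scanner software, scored 0 or 1, are deposited per spot.

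Here log2 processed signals minus each array's 75th percentile over non-control spots were averaged per probe. Limma 3.58.1 in R 4.3.3 fitted a mean per group over 8 arrays, without outlier-flagged spots (3 to 15 per array), for the 30833 probes that all arrays of 1 or more groups showed well above background, with Benjamini-Hochberg adjustment over all of them. The fit was tested on simulated data. Saturation touched 0 spots, and precision is limited by the number of arrays. Spike-in scaling used 8 of 10 control probes. Alternatives were other scalings, normexp, the deposited table, filters, limits of the rule, slide and replicate terms, and left-out arrays. Members to be named were the 10 steepest, the 5 brightest at 24 h, the 3 nearest to each limit and the 3 with the largest SD at 16 h and at 24 h; others are marked in the text. The members, lists and tests were chosen with earlier results of these data known. No sequences are shown, and the function lists could not be applied because no names were annotated.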

Additional observations from a re-analysis of the deposited data

How the results depend on the processing

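The number of probes that meet the rule was 90 to 131 under other scalings, normexp and the deposited table, of which 53 to 109 were among the 109, except that none (0) was under spike-in scaling. It moved with the limits: 192 with detection asked of the 6 imbibed arrays only, 472 with no detection requirement, 255 and 50 with a rise of at least 1.5 and 2.5, and 53 and 168 with a first step below 0.5 and 1.5. Leaving out 1 array gave 91 (without 16 h replicate 2) to 150 probes (without 16 h replicate 1), and the count was 180 without both 16 h replicate 1 and 24 h replicate 2, a setting chosen after seeing the data. The members' median difference between 24 h and 16 h was 3.07 with spike-in scaling, 2.16 with normexp and 2.95 without those 2 arrays, and 2.33 to 2.71 without single imbibed arrays.

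Over all tested probes, 5681 changed between 24 h and 16 h (3593 higher, 2088 lower), 9718 with spike-in scaling (8990 higher, 728 lower), 3511 with normexp, 3310 with probes detected on all arrays (1692 higher, 1618 lower), 16003 with no fold minimum and 5839 with median scaling (3106 higher, 2733 lower). Between 16 h and dry seed 16072 changed (7922 higher, 8150 lower), 27608 with spike-in scaling (26761 higher, 847 lower), 25552 with no filter on dim probes (7894 higher, 17658 lower) and 16629 with normexp (4021 higher, 12608 lower). The median over all tested probes was -0.01 (24 h minus 16 h) and -0.06 (16 h minus dry seed). With median scaling it was -0.13 and -0.18. For 16 h minus dry seed it was 0.10 with the 75th percentile over detected probes and -0.67 with normexp. With that percentile 9 members were called higher at 16 h. The share of all tested probes so called is not given here, so nothing is read from the 9. The causes were not tested. With the replicate block, counts were 5651 and 16197, and it changed no call of a member at 24 h against 16 h. Deviations of same-numbered 16 h and 24 h arrays correlated at 0.12, 0.09 and -0.04, and those of differently numbered ones at -0.16 to 0.13. Deviations within a group are tied by its mean, so whether replicate numbers pair the arrays cannot be decided from these values. Leaving out single arrays gave 5011 to 6776 and 16021 to 16240 calls. Between 108 and 109 members were called at 24 h in every setting run, which is given without weight because the rule used this step.

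For 21 named members, 458 of 462 recomputed differences kept their direction and call; the other 4 were of A_99_P307876 (TA84010_4565), with differences of 1.73 to 2.05 and adjusted p of 0.0502 to 0.0668 by limma without 16 h replicate 2 or 3 or 24 h replicate 2 or 3. The rule chose these members on the 24 h minus 16 h difference in the same arrays, so the kept directions and calls are a description. Arrays in groups of 2 and 3 and dim dry-seed signals limit what can be read of the first step.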
